A study of Mus musculus with 2 samples.

Results

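Colony-stimulating factors and their receptors were followed in repopulating microglia from mice with and without conditional deletion of Hk2, the hexokinase 2 gene. The members were chosen by name: Csf1r, Csf1, Csf2ra, Csf2rb, Csf2rb2, Csf3r and Il34, 7 of the 55450 genes in the count tables. All 7 have counts in both libraries, and 6 of them reached the level at which a gene was counted as measured, a mean of at least 10 CPM (UMIs of the gene per 1000000 UMIs summed over the cells) in microglia-like cells. Il34 did not.

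Microglia survive through CSF1R, a receptor tyrosine kinase with a pair of ligands, CSF1 and IL-34. CSF1R signals through ERK and PI3 kinase, and drugs or deletions that block it empty the brain of microglia, which then refill it from surviving cells. GM-CSF acts through a receptor made of CSF2RA, which gives specificity, and a shared beta chain encoded by Csf2rb; mice carry a second beta chain gene, Csf2rb2, whose product serves IL-3. G-CSF acts through CSF3R, best known on neutrophils. The GM-CSF and G-CSF receptors signal through JAK kinases and STAT proteins.

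There was 1 library of Hk2 cKO cells and 1 of Hk2 fl/fl cells, both from C57BL/6 mouse brain at day 3 of repopulation, captured with 10x Genomics 3' chemistry. Hk2 encodes hexokinase 2, which phosphorylates glucose. The cKO mice carry Cx3cr1CreER, a Cre that tamoxifen switches on and that is made from the Cx3cr1 locus, with both Hk2 alleles floxed, and the fl/fl mice carry the floxed alleles without this Cre; Cre was induced with 100 µg tamoxifen on 2 consecutive days after birth, or at other ages in some experiments. Cells of both libraries were sorted as CD11b high and CD45 low, and the Cre can act in any cell that expresses Cx3cr1. How microglia were depleted, how many animals each library pools and whether fl/fl mice received tamoxifen are not given in the sources used here.

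The cKO library held 2607 barcodes and 32896996 UMIs, and the fl/fl library 3089 barcodes and 37476201 UMIs. After filtering, 2300 cKO and 2824 fl/fl cells remained, of which 2005 (87.2%) and 2470 (87.5%) were microglia-like, at median depths of 11979 UMIs in cKO and 10173 UMIs in fl/fl. The libraries shared 2 barcodes. In both libraries 15 of 16 microglial markers had UMIs in 25% or more of the microglia-like cells, while neutrophil markers summed to 65.5 CPM in cKO and 45.0 CPM in fl/fl. Hk2 itself measured 43.5 CPM in cKO and 166 CPM in fl/fl microglia-like cells, and Cx3cr1, the locus that carries Cre, measured 676 CPM in cKO and 1301 CPM in fl/fl cells. With 1 library per genotype nothing was tested between genotypes: intervals are exact 95% intervals (Poisson for levels, Clopper-Pearson for shares), and they cover counting error only. "Called" below means at least 25% higher in one group, with intervals that do not overlap. In the comparison of cKO with fl/fl microglia-like cells, 3.52% of the 7810 genes measured were called higher in cKO and 2.88% lower. Such shares were not computed between genotypes within single clusters or cell cycle states, so calls there are given without one.

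The fl/fl library was not uniform, and this touches every comparison below. Cells were split by a pair of transcripts, the mitochondrial gene mt-Nd3 and its copy Gm28438, a pseudogene on chromosome 1 that differs from it at 1 of 345 aligned bases in the GENCODE M21 transcripts. Of the cKO microglia-like cells, 1703 had UMIs of Gm28438 alone, 4 of mt-Nd3 alone, 49 of both and 249 of neither. Of the fl/fl cells, 493 had the copy alone, 1202 the mitochondrial gene alone, 246 both and 529 neither. Cells with Gm28438 but no mt-Nd3 UMI are called Gm28438-type below, and the reverse Nd3-type. Among cells with at least 5 UMIs of the pair, Gm28438 gave over 90% of them in 657 of 686 cKO cells, with 29 cells from 10% to 90% and 0 under 10%. Of 499 such fl/fl cells, 66 lay above 90%, 144 from 10% to 90% and 289 below 10%. The 493 Gm28438-type fl/fl cells held 1260 UMIs of Gm28438, so many were typed on few UMIs. How pure the types are was not tested. At the targeted gene the Gm28438-type fl/fl cells were unlike cKO cells: Hk2 measured 41.1 CPM in Gm28438-type cKO cells, against 154 CPM in Gm28438-type and 170 CPM in Nd3-type fl/fl cells. Cx3cr1 was likewise lowest in cKO, at 673 CPM in Gm28438-type cKO cells, 1294 CPM in Gm28438-type fl/fl cells and 1271 CPM in Nd3-type fl/fl cells. The cKO library thus held nearly 1 kind of cell by this pair and the fl/fl library held both, so each member is given for both kinds of fl/fl cell.

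The start regions of Csf1 and Csf3r are shown because these were the members whose levels differed most between the kinds of fl/fl cell, in opposite directions, and that of Csf2ra as a receptor gene whose level was close in all. Sequences are from RefSeq (GRCm38.p6), which held this window for 4 of the 7 members, and run 5′ to 3′ on the gene's strand from 250 bases before to 50 bases after the start. Capitals mark matches, on either strand, to GAGGAA, a core that PU.1 binds, to the NF-kB consensus, to TGANTCA, the AP-1 site, or to TGACGTCA, the cyclic AMP response element; matches may overlap.
Csf1, chr3:107760420-107760719, minus strand: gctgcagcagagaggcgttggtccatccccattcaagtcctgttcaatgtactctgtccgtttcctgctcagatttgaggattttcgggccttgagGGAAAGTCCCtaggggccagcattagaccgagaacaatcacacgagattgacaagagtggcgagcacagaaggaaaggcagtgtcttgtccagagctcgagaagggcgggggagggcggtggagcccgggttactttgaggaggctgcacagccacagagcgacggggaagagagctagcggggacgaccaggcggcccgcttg
Csf3r, chr4:126024409-126024708, plus strand: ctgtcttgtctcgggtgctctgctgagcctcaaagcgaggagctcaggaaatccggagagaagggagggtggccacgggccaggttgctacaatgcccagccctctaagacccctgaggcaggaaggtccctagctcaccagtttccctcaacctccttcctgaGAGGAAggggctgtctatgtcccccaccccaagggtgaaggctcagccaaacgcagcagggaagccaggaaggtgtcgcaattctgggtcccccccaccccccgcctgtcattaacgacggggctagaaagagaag
Csf2ra, chr19:61228369-61228668, minus strand: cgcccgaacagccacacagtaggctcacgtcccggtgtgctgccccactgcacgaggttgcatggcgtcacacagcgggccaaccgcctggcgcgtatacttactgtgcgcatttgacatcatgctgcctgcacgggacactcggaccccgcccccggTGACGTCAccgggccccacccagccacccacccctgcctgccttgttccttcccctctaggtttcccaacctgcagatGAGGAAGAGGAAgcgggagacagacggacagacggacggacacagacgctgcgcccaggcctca
The Csf1 window held 1 match to the NF-kB consensus and none to the other 3 motifs. The Csf3r window held 1 match to the PU.1 core, and the Csf2ra window held 2 side by side and 1 cyclic AMP response element. The Csf2rb2 window, not shown, also held 2 PU.1 cores. Over 32851 mouse promoter windows of the same length, 4.51% held the NF-kB consensus, 28.3% the PU.1 core, 7.81% the AP-1 site and 1.79% the cyclic AMP response element. A match is a description of the letters.

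Among the receptors, Csf1r was detected in nearly every microglia-like cell of both libraries, and its level differed between them by less than 2%. It measured 1568 CPM in cKO and 1593 CPM in fl/fl cells, a cKO to fl/fl ratio of 0.984 (0.971 to 0.996). At least 1 Csf1r UMI was found in 99.1% of cKO and 99.4% of fl/fl cells, with a median of 20 UMIs per cKO cell and 17 per fl/fl cell. The transcript was spread widely, since the top 5% of cells held 14.4% of the Csf1r UMIs in cKO and 18.4% in fl/fl. Across the 9 microglia-like clusters, the cKO level was nominally above fl/fl in 5 and below it in 4, and none was called. By kind of cell, Csf1r measured 1556 CPM in Gm28438-type cKO cells, 1461 CPM in Gm28438-type fl/fl cells and 1628 CPM in Nd3-type fl/fl cells, so its small difference between genotypes pointed either way according to the fl/fl cells used.

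Csf1r varied more between microglial states than between genotypes. Cluster 0 was led by the mitotic genes Pbk, Cdk1 and Cdc20 with the S phase genes Tyms and Rrm2. The Csf1r level was lowest there, at 1051 CPM in cKO and 1035 CPM in fl/fl cells. It was highest in cluster 10, led by Otud1, Klf2 and Atf3, at 1947 CPM in cKO and 2054 CPM in fl/fl cells. The other clusters lay between these in both libraries. Cells were also split by 12 G2/M and 12 S phase genes after thinning each cell to 5000 UMIs: at least 3 G2/M genes made a cell G2/M-positive, and at least 3 S genes without that made it S-positive only. Csf1r measured 1371 CPM in G2/M-positive, 1382 CPM in S-positive and 1738 CPM in the remaining cKO cells, and 1420, 1452 and 1790 CPM in the same states of fl/fl cells.

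Csf3r showed the widest gap between G2/M-positive and the remaining cells of the 6 measured members in both libraries. Csf3r measured 83.8 CPM (77.9 to 89.9) in G2/M-positive, 73.2 (65.0 to 82.2) in S-positive and 151 (145 to 158) in the remaining cKO cells. In fl/fl cells it measured 104 CPM (99.1 to 110) in G2/M-positive, 86.4 (77.9 to 95.5) in S-positive and 154 (147 to 160) in the rest. The log2 difference of G2/M-positive from the remaining cells was -0.85 for Csf3r in cKO and -0.55 in fl/fl, against -0.34 in cKO and -0.33 in fl/fl for Csf1r. In cKO cells all 6 measured members were called lower in G2/M-positive cells, where 23.1% of all genes were and 22.6% were called higher; in fl/fl cells 3 of 6 were (Csf1r, Csf2rb2 and Csf3r), against 15.1% of all genes, with 20.3% called higher. In S-positive cells Csf1r and Csf3r were called lower in cKO, where 13% of genes were, and Csf2rb2 and Csf3r in fl/fl, where 7.82% were. Csf1 was called higher in S-positive cKO cells, as were 18% of genes, and no member was in fl/fl, where 18.1% of genes were. At 5000 UMIs per cell, Csf3r was found in 31.8% of G2/M-positive and 50.6% of the remaining cKO cells, and in 37.2% and 52.3% of the same fl/fl cells. Median depth moved with these states, at 14798 UMIs in G2/M-positive and 11879 in the remaining cKO cells and 13373 and 9272 in fl/fl; its part in the CPM differences was not tested, and the shares at equal depth run the same way.

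**Figure D1:**
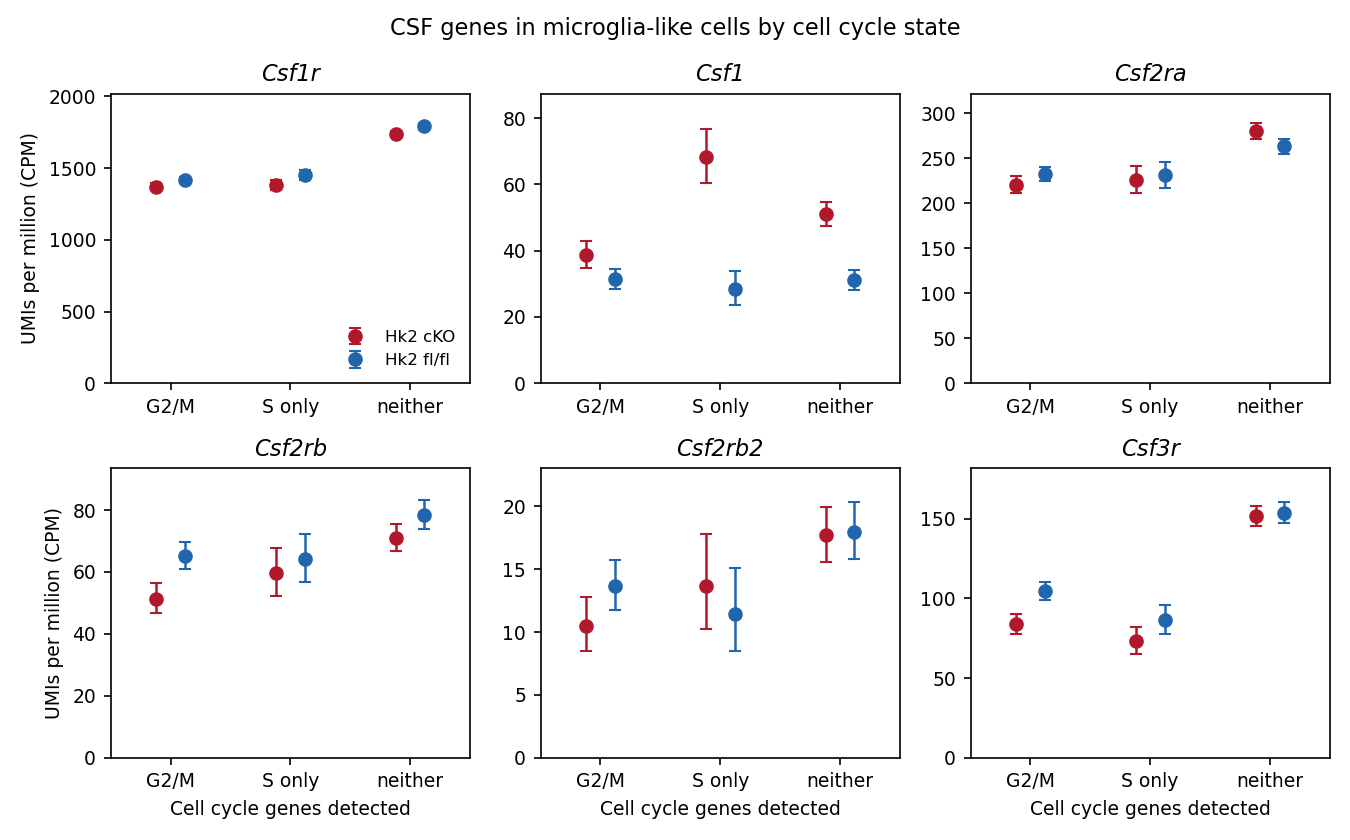
Level of each measured member (CPM, linear axis from 0) in microglia-like cells that are G2/M-positive, S-positive only or neither, with Hk2 cKO in red and Hk2 fl/fl in blue; bars are exact 95% Poisson intervals. Csf3r is at 83.8 and 104 CPM in G2/M-positive cKO and fl/fl cells and above 150 CPM in the cells that are neither, and Csf1 alone has its highest cKO level in S-positive cells.

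Csf3r, the G-CSF receptor gene, measured 118 CPM (114 to 122) in cKO and 125 CPM (121 to 129) in fl/fl microglia-like cells, which is not a called difference. Its range across clusters was wide: 51.4 CPM in cKO and 48.7 CPM in fl/fl cells of cluster 0, and 191 CPM in cKO and 201 CPM in fl/fl cells of cluster 10. Across clusters it moved with Csf1r, with Pearson's r of 0.98 between their log2 levels over 16 points, 8 microglia-like clusters in each of the 2 libraries, which share their depth and make-up within a library. Csf1r was the 4th most alike of 7940 genes, after Ppp1r9a, Sat1 and Pnpla7. In 1 cluster, number 5, with the immediate-early genes Fosb and Fos among its leading genes, Csf3r was called higher in cKO, at 191 CPM (177 to 205), than in fl/fl, at 151 CPM (139 to 165). In Gm28438-type cKO cells of this cluster it measured 183 CPM (169 to 199). In fl/fl cells there it measured 160 CPM (144 to 178) in the Nd3 type, with overlapping intervals, and 92.8 CPM (64.3 to 130) in the Gm28438 type.

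The kind of fl/fl cell mattered for Csf3r. It measured 114 CPM (110 to 118) in Gm28438-type cKO cells. In fl/fl cells it measured 88.4 CPM (81.0 to 96.2) in the Gm28438 type and 133 CPM (128 to 139) in the Nd3 type. The cKO level therefore lay between them, 1.29-fold (1.18 to 1.42) above Gm28438-type fl/fl cells and at 0.857 (0.811 to 0.907) of the Nd3 type. Within fl/fl, the Gm28438-type level was lower in 7 of 8 clusters with at least 25 cells of each kind, with intervals apart in 3.

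Csf2ra, the GM-CSF-specific chain, was the second most widely detected member and stayed close between genotypes. It measured 254 CPM (248 to 260) in cKO and 247 CPM (242 to 253) in fl/fl cells, and the ratio of 1.03 had an interval of 0.994 to 1.060. At 5000 UMIs per cell it was found in 68.3% of cKO and 68.2% of fl/fl cells. Its level was lowest in cluster 0, at 153 CPM in cKO and 161 CPM in fl/fl, and highest at 308 CPM in cluster 5 for cKO and 293 CPM in cluster 10 for fl/fl.

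Csf2rb, the beta chain shared by the GM-CSF, IL-3 and IL-5 receptors, was slightly lower in cKO without reaching a call. It measured 63.4 CPM (60.5 to 66.4) in cKO and 71.6 CPM (68.7 to 74.5) in fl/fl cells, a ratio of 0.886 (0.833 to 0.943). Intervals did not overlap, but the gap was under 25%. It was called lower in cluster 10, at 78.3 CPM in cKO against 101 CPM in fl/fl, and in G2/M-positive cells, at 51.4 CPM in cKO against 65.2 CPM in fl/fl. The share of all genes called was not computed for either comparison. Here too the fl/fl kinds differed, with 63.2 CPM (60.1 to 66.4) in Gm28438-type cKO cells, 57.7 CPM (51.7 to 64.1) in their fl/fl counterparts and 74.5 CPM (70.4 to 78.8) in Nd3-type fl/fl cells. Within the Gm28438 type the direction turned, and the ratio of 1.096 had an interval of 0.975 to 1.23.

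Csf2rb2 had the lowest counts of the measured members, 424 UMIs in cKO and 494 in fl/fl cells, and measured 14.99 CPM (13.6 to 16.5) in cKO and 15.1 CPM (13.8 to 16.5) in fl/fl. The beta chain genes are neighbours and near copies. Of the 31-base words in the longest annotated Csf2rb transcript, 28.0% also occur in Csf2rb2 transcripts; in its last 500 bases, where 3' libraries read most, 1.28% do. Reads that fall in the shared part could be lost or counted for the wrong gene. How many counts this touches was not tested, so the Csf2rb2 level keeps this uncertainty. At 5000 UMIs per cell, Csf2ra was found in 73.0% (68.7 to 77.0) of cKO cells with Csf2rb and 66.7% (64.1 to 69.2) of those without, and in 74.0% (70.4 to 77.4) and 65.9% (63.5 to 68.2) of the same fl/fl cells, so both chains of the GM-CSF receptor were seen together in most cells in which the beta chain was caught.

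The ligand Csf1 was the member that differed most between the libraries, and it was also the one most dependent on which fl/fl cells were used. It measured 49.1 CPM (46.6 to 51.8) in cKO and 31.5 CPM (29.6 to 33.4) in fl/fl microglia-like cells, 1.56-fold higher in cKO (1.44 to 1.69). Its log2 ratio was 0.63 from summed counts and 0.37 when the CPM of single cells was averaged. Of the 6 measured members, Csf1 was the only one called higher, beside 3.52% of all genes, and none was called lower, beside 2.88%; the median log2 ratio of the 6 was -0.02, beside -0.04 for all genes measured. In Gm28438-type cKO cells it measured 48.8 CPM (46.1 to 51.5), close to the 46.9 CPM (41.6 to 52.8) of Gm28438-type fl/fl cells, and above the 25.4 CPM (23.0 to 28.0) of Nd3-type fl/fl cells. The difference between genotypes was 1.04-fold (0.912 to 1.19) within the same kind of cell and 1.92-fold (1.71 to 2.15) against the other kind. The difference between the kinds inside the fl/fl library, 1.85-fold (1.58 to 2.15), was as large. Among all genes, 4.86% were called higher and 7.82% lower in Gm28438-type cKO than in Gm28438-type fl/fl cells, and 4.77% higher and 3.06% lower than in Nd3-type fl/fl cells. Within fl/fl, 9.61% of genes were called higher in the Gm28438 type and 4.36% lower. Whether Hk2 loss moves Csf1 cannot be told apart here from the difference between the kinds of cell.

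**Figure D2:**
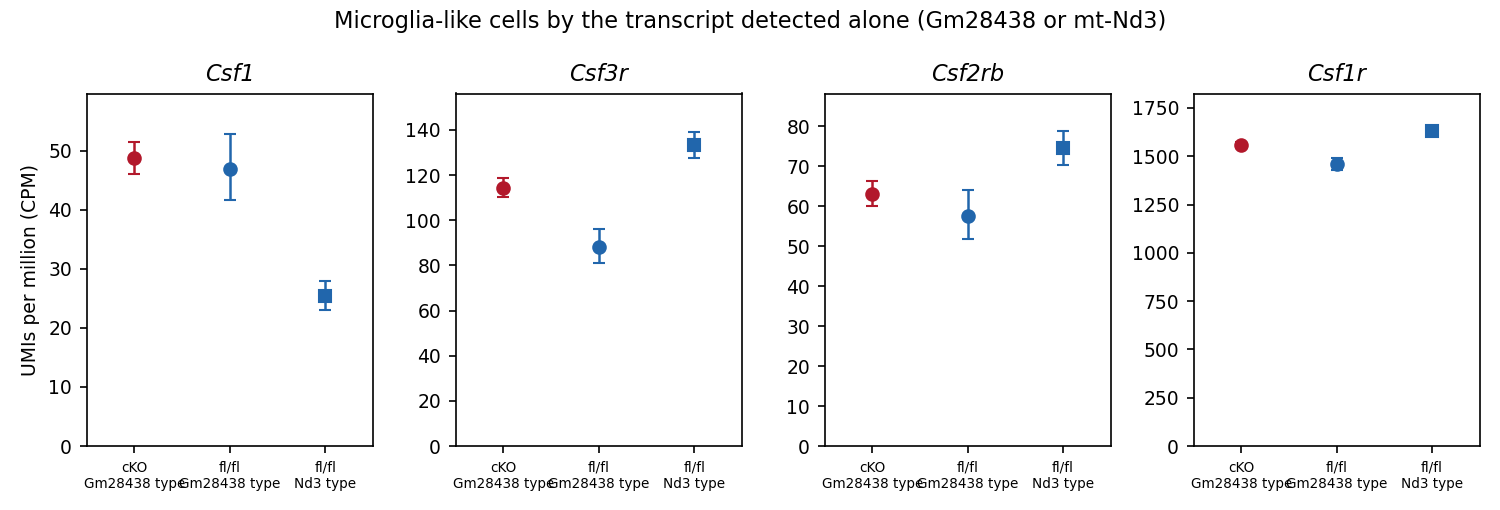
Levels of Csf1, Csf3r, Csf2rb and Csf1r (CPM, linear axes from 0) in Gm28438-type cKO cells (red circles), Gm28438-type fl/fl cells (blue circles) and Nd3-type fl/fl cells (blue squares), with exact 95% Poisson intervals. Csf1 is at 48.8 and 46.9 CPM in the cKO and fl/fl cells with Gm28438 and at 25.4 CPM in the fl/fl cells with mt-Nd3.

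Csf1 was detected in far fewer cells than its receptor, at a much lower count per cell. At least 1 Csf1 UMI was found in 27.9% of cKO and 20.7% of fl/fl cells, and at 5000 UMIs per cell in 15.01% of cKO and 11.2% of fl/fl cells. Cells with 3 or more UMIs made up 8.43% of cKO and 4.41% of fl/fl cells, and the top 5% of cells held 49.3% of all Csf1 UMIs in cKO and 54.4% in fl/fl. Such a share is high where counts are low, and for Csf2rb2, with fewer UMIs than Csf1, it was 42.2% in cKO and 41.7% in fl/fl. Csf2rb had 1795 UMIs in cKO and 2337 in fl/fl, against 1390 and 1027 for Csf1. Its share was 25.4% in cKO and 27.1% in fl/fl, well below that of Csf1. At 5000 UMIs per cell the variance over the mean was 1.93 in cKO and 1.88 in fl/fl for Csf1. For Csf1r it was 1.98 in cKO and 1.84 in fl/fl. The means were far apart, at 0.227 in cKO and 0.156 in fl/fl for Csf1 and 8.15 and 8.23 for Csf1r. This ratio depends on the mean, so it does not rank the spread of Csf1 against that of Csf1r. For Csf2rb, with means of 0.308 in cKO and 0.364 in fl/fl, it was 1.13 and 1.22, below that of Csf1. At 5000 UMIs, every cell with a Csf1 UMI also had Csf1r: 274 of 274 in cKO and 253 of 253 in fl/fl. Since nearly every cell had Csf1r, this gives no more than that ligand and receptor transcripts were found in the same cells.

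As a ratio of the highest to the lowest cluster, the Csf1 level differed more between microglial clusters than that of any other measured member in both libraries. It was near absent in cluster 0, with 3 UMIs in 117 cKO cells and 1 UMI in 94 fl/fl cells. It was low in cluster 9, led by Mif, Gm28438, Tnni2 and Apoe, at 12.8 CPM in cKO and 11.9 CPM in fl/fl. In cluster 7, also led by mitotic genes (Top2a, Prc1 and Mki67), Csf1 measured 61.9 CPM in cKO and 31.3 CPM in fl/fl. Its highest cKO level was 88.2 CPM (75.4 to 103) in cluster 8, led by the calcineurin regulator Rcan1 with the chemokine and cytokine genes Ccl7 and Il1b, against 34.4 CPM (29.4 to 40.0) in fl/fl. In fl/fl the highest levels were 63.8 CPM (44.4 to 88.7) in the interferon-response cluster 6, led by Ifit3 and Rsad2, against 54.8 CPM (47.1 to 63.4) in cKO, and 57.2 CPM (49.99 to 65.2) in cluster 2, led by Adamts1, against 63.3 CPM (52.9 to 75.1) in cKO. Cluster 1, led by Ccnb2, Tnfsf9 and Cxcl2, had 53.8 CPM in cKO and 29.2 CPM in fl/fl, and cluster 5 had 31.7 CPM in cKO and 12.2 CPM in fl/fl. In all, Csf1 was called higher in cKO in 5 of the 9 clusters (1, 5, 7, 8 and 10) and nominally lower in cluster 6 alone. The share of all genes called within clusters was not computed, so this count is not read as particular to Csf1. By cell cycle state, in cKO it measured 38.7 CPM in G2/M-positive, 68.2 CPM in S-positive and 51.0 CPM in the remaining cells, and in fl/fl 31.4, 28.4 and 31.04 CPM in the same states. The log2 difference of G2/M-positive from the remaining cells was -0.39 in cKO and 0.02 in fl/fl. It was -0.81 in cKO and -0.53 in fl/fl when 5 of the 12 genes were asked for in place of 3, and -0.36 in cKO and -0.23 in fl/fl with 2, so the fl/fl direction depended on this threshold.

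**Figure D3:**
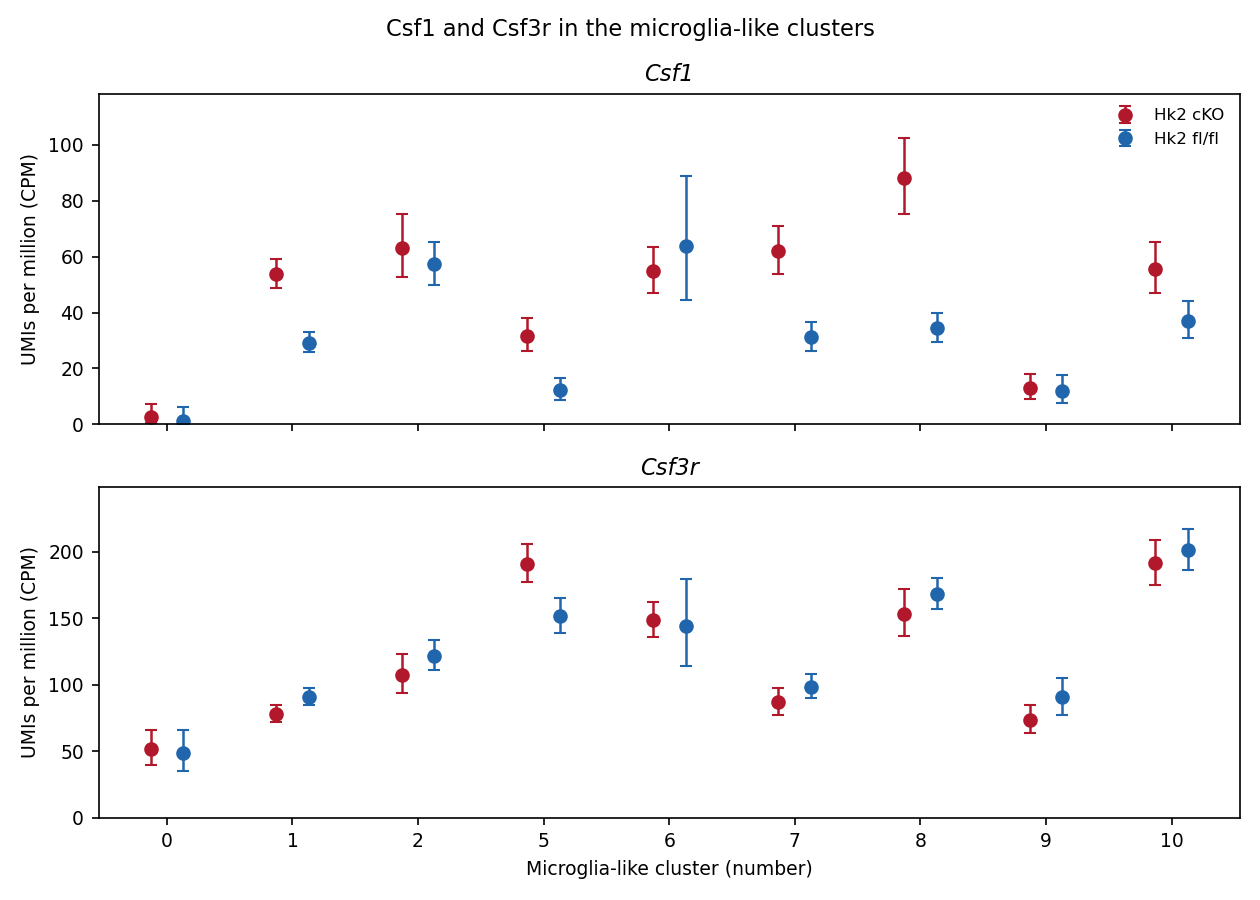
Csf1 (top) and Csf3r (bottom) in CPM for each microglia-like cluster, given by its number, with Hk2 cKO in red and Hk2 fl/fl in blue and exact 95% Poisson intervals on linear axes from 0. Csf1 reaches 88.2 CPM in cKO cells of cluster 8 against 34.4 CPM in fl/fl cells, whereas Csf3r is lowest in cluster 0 and highest in cluster 10 of the fl/fl library.

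Splitting the clusters by kind of cell kept the contrast with Nd3-type fl/fl cells and left less of it with the others. In 8 clusters with at least 25 cells of each kind, Csf1 in Gm28438-type cKO cells was above Nd3-type fl/fl cells in 7, with intervals apart in 6. Against Gm28438-type fl/fl cells it was above in 6 of 8, with intervals apart and cKO higher in cluster 8 (91.1 CPM, 77.2 to 107, against 48.6 CPM, 31.5 to 71.8), and apart and cKO lower in cluster 2 (62.4 CPM, 51.2 to 75.3, against 96.4 CPM, 78.7 to 117). Cluster 2 held 21.7% of the Gm28438-type fl/fl cells, 7.75% of the cKO cells and 9.98% of the Nd3-type fl/fl cells. With fl/fl levels weighted to the cluster make-up of the cKO cells, Csf1 measured 48.0 CPM in cKO against 39.8 CPM in Gm28438-type fl/fl cells, a ratio of 1.21, and against 23.2 CPM in the Nd3 type, a ratio of 2.07. This weighting was added after the levels had been seen and carries no interval.

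**Figure D4:**
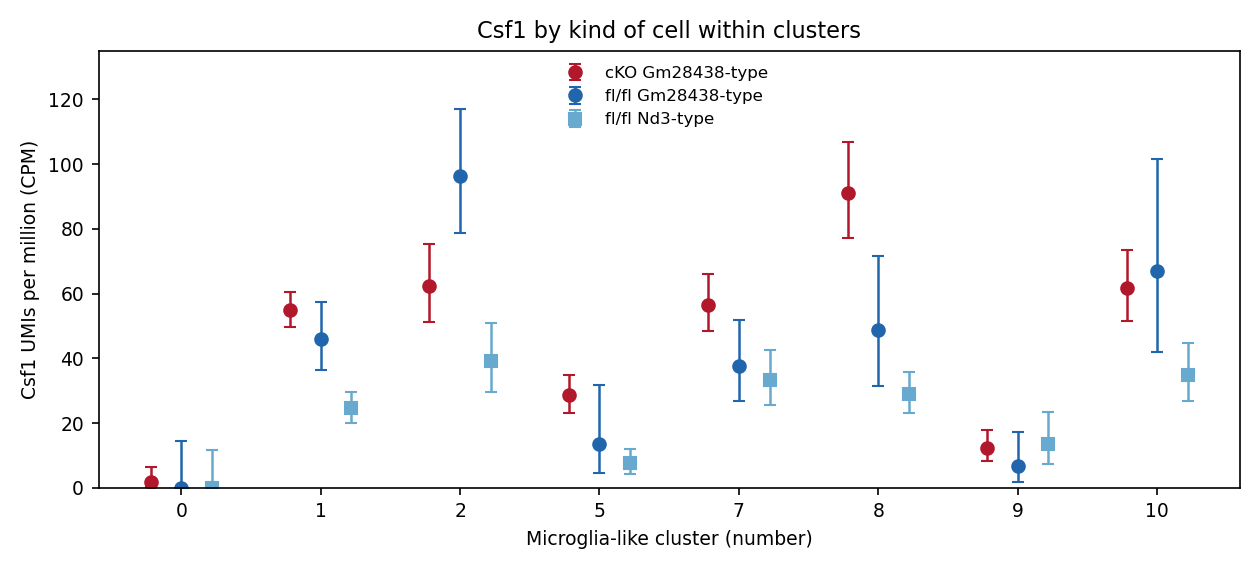
Csf1 (CPM, linear axis from 0) in the 8 microglia-like clusters with at least 25 cells of each kind, for Gm28438-type cKO cells (red circles), Gm28438-type fl/fl cells (dark blue circles) and Nd3-type fl/fl cells (light blue squares), with exact 95% Poisson intervals. In cluster 8 the cKO cells lie highest at 91.1 CPM, and in cluster 2 the Gm28438-type fl/fl cells lie highest at 96.4 CPM.

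The genes whose level across clusters was most like that of Csf1 were Hif1a, which encodes an oxygen-regulated transcription factor, the integrin gene Itga5, the inositol kinase gene Itpkc, the kinase gene Abl2 and the phosphatase gene Ptprj, with Pearson's r from 0.92 to 0.94 over 20 points (10 clusters in each of 2 libraries). For Csf1r the most alike included Psap, Pmp22, Plxdc2 and Laptm5, with r from 0.96 to 0.98. The 10 clusters include the neutrophil-like and the endothelial-like one. Over the 8 microglia-like clusters alone (16 points), the genes most like Csf1 were Hivep3, Plk3, Hif1a, Itga5 and Gm26522. Those most like Csf1r there were Sat1, Pnpla7, Ppp1r9a, Usp35 and Crebrf. These are descriptions over points that share a library, chosen as the highest of 7940 genes.

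The second CSF1R ligand, Il34, which in brain comes mainly from neurons, was nearly absent. No cluster was named neuron-like. Il34 had 9 UMIs in cKO and 3 UMIs in fl/fl barcodes. Of those in kept cells, microglia-like cells held 1 of 9 in cKO and 0 of 2 in fl/fl. The mural-like cluster, named after cells that wrap small vessels, held 5 UMIs in 4 of 10 cKO cells and 0 UMIs in 18 fl/fl cells. The exact interval reaches 19.2 CPM in fl/fl against 30.4 CPM (9.87 to 71.0) in cKO, so the libraries could not be told apart on so few cells. Its cells also carried microglial markers, at 15181 CPM in cKO and 17553 CPM in fl/fl, against mural markers at 1843 CPM in cKO and 2542 CPM in fl/fl. Only 1 cKO and 1 fl/fl cell had no UMI of P2ry12, Tmem119, Siglech and Fcrls. Which cells these Il34 UMIs came from was not tested. Cluster 12, which was left unnamed and was led by Acp5, Ctsk and Mmp9, held 3 UMIs in cKO and 2 in fl/fl. In microglia-like fl/fl cells a count of 0 allows a level of up to 0.0919 CPM, taken as 3 counts of the summed UMIs; the exact 95% Poisson upper bound is 0.113 CPM.

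The receptors were also measured in the other cells that passed the gate. UMIs of P2ry12, Tmem119, Siglech and Fcrls occurred in many non-microglial cells, so levels are given for cells with no UMI of these 4 genes, which are few. Csf3r measured 272 CPM (227 to 322) in 57 cKO and 244 CPM (179 to 324) in 34 fl/fl neutrophil-like cells, and 76.5 CPM (38.2 to 137) in 17 cKO and 85.4 CPM (51.4 to 133) in 34 fl/fl monocyte-like cells. Csf3r was at 204 CPM in cKO and 204 CPM in fl/fl over all neutrophil-like cells. After thinning to 5000 UMIs, which leaves out the cells with fewer, it was at 121 CPM in cKO and 138 CPM in fl/fl. At that depth it was found in 34.2% (19.6 to 51.4) of cKO and 33.3% (13.3 to 59.0) of fl/fl neutrophil-like cells without the 4 markers, against 42.7% of cKO and 44.5% of fl/fl microglia-like cells, so no order between these classes is read from the CPM. Csf1r was at 41.5 CPM (25.3 to 64.1) in these cKO and 46.7 CPM (21.4 to 88.7) in these fl/fl neutrophil-like cells, but over all neutrophil-like cells it was at 650 CPM in cKO and 838 CPM in fl/fl, so the low level rests on the choice of cells without microglial UMIs. In the cells so chosen, 10 of 57 cKO and 8 of 34 fl/fl cells had a Csf1r UMI, at median depths of 8504 UMIs in cKO and 5095 UMIs in fl/fl.

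Csf1r was lower in monocyte-like cells than in cluster 14, again in cells without the 4 markers. It measured 278 CPM (199 to 379) in cKO and 301 CPM (233 to 382) in fl/fl monocyte-like cells, whose markers include Ly6c2 and Plac8. Cluster 14, left unnamed and led by Ear2, Ace, Cd300e and Treml4, had 936 CPM (695 to 1235) in 12 cKO and 1258 CPM (890 to 1726) in 9 fl/fl cells, with intervals apart from those of monocyte-like cells in both libraries. Cluster 16, led by the antigen presentation genes H2-Eb1, H2-Aa and Cd74 with Cd209a, had 180 CPM (118 to 264) in 15 cKO and 195 CPM (117 to 304) in 13 fl/fl cells. Csf2ra was higher in monocyte-like cells, at 396 CPM (300 to 514) in cKO and 368 CPM (293 to 457) in fl/fl, than in microglia-like cells in both libraries. Csf2rb was likewise higher there, at 167 CPM (107 to 248) in cKO and 144 CPM (98.3 to 203) in fl/fl. Over 7 alternative choices of cells, clustering and depth, it ran from 94.6 to 200 CPM in cKO and from 94.3 to 144 CPM in fl/fl monocyte-like cells. No order at equal depth is read from these levels. In neutrophil-like cells Csf2rb reached 102 CPM (75.2 to 134) in cKO and 98.6 CPM (59.4 to 154) in fl/fl. In endothelial-like cells without the 4 markers Csf2rb had 0 UMIs in 19 cKO and in 7 fl/fl cells. Csf1 had 0 UMIs in 17 cKO and 34 fl/fl monocyte-like cells and in 57 cKO neutrophil-like cells, and 13 UMIs in 4 of 34 fl/fl neutrophil-like cells.

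**Figure D5:**
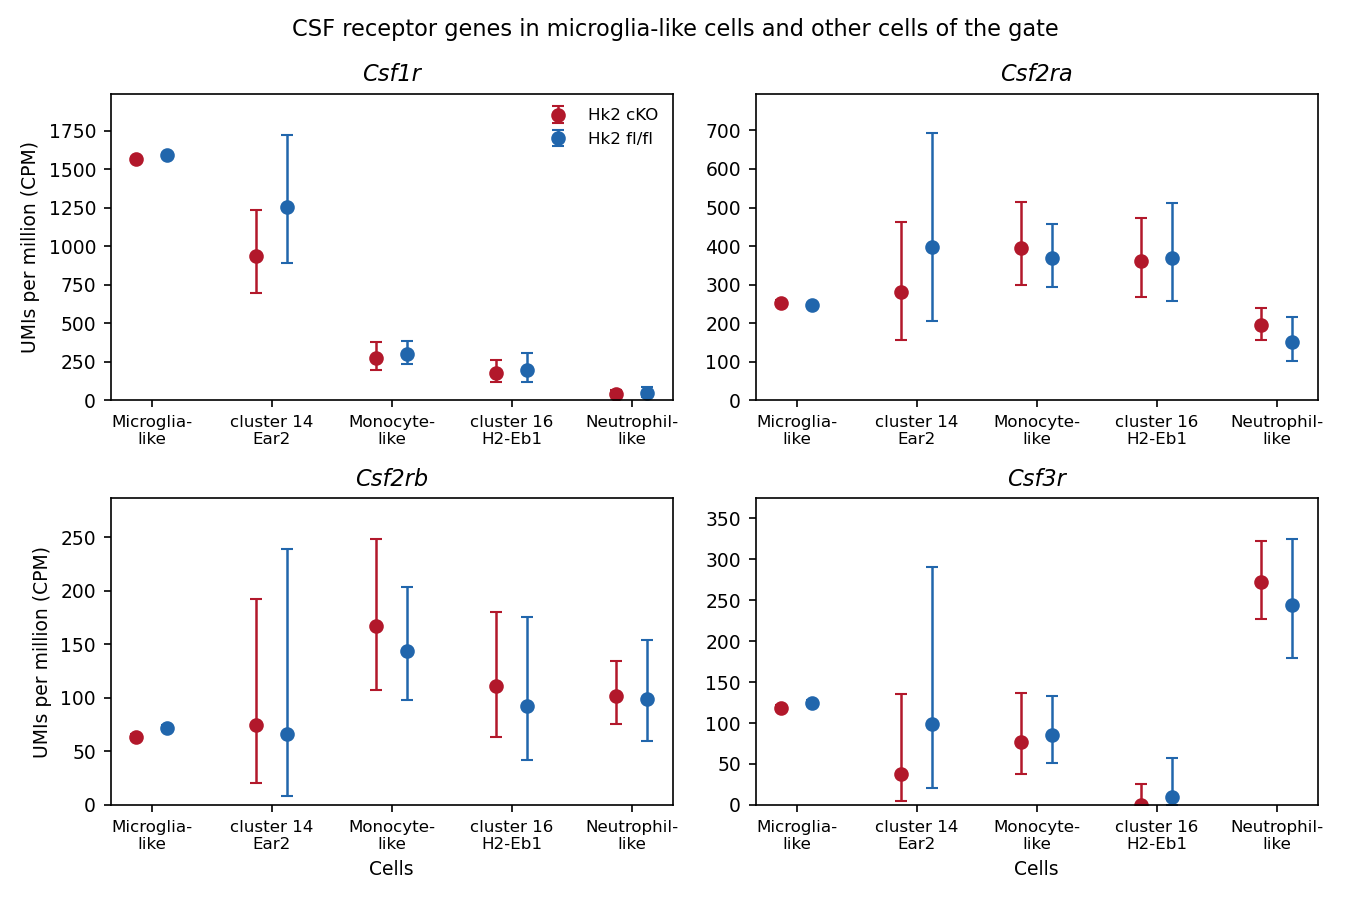
Csf1r, Csf2ra, Csf2rb and Csf3r (CPM, linear axes from 0) in microglia-like cells and, for cells with no UMI of 4 microglial markers, in cluster 14, monocyte-like cells, cluster 16 and neutrophil-like cells, with Hk2 cKO in red and Hk2 fl/fl in blue and exact 95% Poisson intervals. Csf3r in neutrophil-like cells is plotted at 272 CPM in cKO and 244 CPM in fl/fl. Neutrophil-like cells with at least 5000 UMIs, with or without the 4 markers and thinned to 5000, have 121 CPM in cKO and 138 CPM in fl/fl. Csf1r in the plotted neutrophil-like cells is at 41.5 CPM in cKO and 46.7 CPM in fl/fl.

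Other genes of the pathway were compared between the genotypes in microglia-like cells, where 3.52% of all genes were called higher in cKO and 2.88% lower. Of 32 CSF1R signalling proteins, 29 were measured, 8 nominally higher and 21 nominally lower in cKO, and none was called; their median log2 ratio was -0.09, beside -0.04 for all genes measured. Tyrobp, the adaptor that couples CSF1R to beta-catenin signalling, measured 3034 CPM in cKO and 3007 CPM in fl/fl, and the gaps farthest from 0 included those of the kinase gene Src, at 12.2 CPM in cKO and 10.6 CPM in fl/fl, and of the adaptor gene Gab2, at 21.5 CPM in cKO and 24.4 CPM in fl/fl. All 9 transcription factor genes that act on Csf1r were measured and none was called; Spi1, which encodes PU.1, was at 489 CPM in cKO and 482 CPM in fl/fl. Of 13 JAK-STAT genes 9 were measured and none was called, with Stat3 at 158 CPM in cKO and 176 CPM in fl/fl. Of 4 genes of CSF1R shedding 3 were measured and none was called; Rhbdf2, which brings the protease ADAM17 to the cell surface, was at 38.2 CPM in cKO and 31.2 CPM in fl/fl.

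In the other lists 2 genes were called higher and 0 lower; beside the 3.52% of all genes called higher, nothing is read from these counts about the lists. Of 10 related ligand and receptor genes 2 were measured, and Kitl, the ligand of the related receptor KIT, was called higher at 22.5 CPM (20.8 to 24.3) in cKO against 17.9 CPM (16.5 to 19.4) in fl/fl, while Il3ra, the specific chain of the IL-3 receptor, was not called at 23.2 CPM in cKO and 27.6 CPM in fl/fl. Of 13 ERK feedback and growth response genes 7 were measured, and Ccnd1, the cyclin gene that growth factors induce, was called higher at 212 CPM (207 to 218) in cKO against 165 CPM (161 to 169) in fl/fl. Ccnd1 followed the kinds of cell as Csf1 did, at 212 CPM in Gm28438-type cKO cells, 229 CPM in Gm28438-type fl/fl cells and 137 CPM in Nd3-type fl/fl cells. Kitl was not called within the Gm28438 type, at 22.6 CPM in cKO and 18.6 CPM in fl/fl, and was called against the Nd3 type, at 16.6 CPM.

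On GRCm38, Csf1 lies on chromosome 3 at 107741048 to 107760469, Csf3r on chromosome 4 at 126024550 to 126044440, Csf2ra on chromosome 19 at 61223957 to 61228429 and Il34 on chromosome 8 at 110741829 to 110805924. Csf2rb2, at 78282507 to 78305721, and Csf2rb, at 78325752 to 78353847, lie on chromosome 15 on opposite strands with 20030 bases between them. Csf1r lies on chromosome 18 at 61100598 to 61132149, where its 3' end overlaps Hmgxb3 on the other strand; Hmgxb3 had 413 UMIs in cKO and 505 UMIs in fl/fl barcodes, against 48105 in cKO and 57113 in fl/fl for Csf1r.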

How the data were processed

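Raw UMI counts per gene and barcode were deposited for each library; Cell Ranger 3.1.0 made them on GRCm38, per the submitters' processing notes, and the authors applied no normalization to them. All 55450 gene identifiers were found in GENCODE M21, which gave positions. Kept barcodes had 500 or more genes and no more than 10% of UMIs from mitochondrial genes. Scrublet marked 1 cKO and 2 fl/fl barcodes, so it did not work here and doublets remain.

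Cells were clustered in scanpy 1.11.5 (2000 variable genes without the 7 members, 30 principal components, 15 neighbours, Leiden resolution 0.8, seed 1, igraph 0.11.9) and named from marker lists. A cluster was microglia-like when the 16 microglial markers were detected in 70% of its cells on average and no other class had at least 3 markers; these thresholds were set after seeing the clusters. Each named class other than microglia needed at least 3 of its own markers among the top 10 genes by fold.

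Counts were summed per library and class to CPM; log2 ratios add 1 CPM, which understates differences of low genes. The members and lists were chosen with earlier results of these data known. Named genes are the 7 members, the 5 genes most like each by Pearson's r over clusters of at least 50 cells per library, and from each list the 3 measured genes with the log2 ratio farthest from 0 and the most abundant one; some genes that this rule names are not reported here. Thinning to 5000 UMIs left out 180 cKO and 220 fl/fl microglia-like cells. On simulated Poisson counts for 7810 genes, 94.3% of the intervals of 1000 unchanged genes held the true ratio. Such counts have no spread between cells or animals beyond counting error, so this checks only how the intervals were computed. Alternatives used TMM from edgeR 4.0.16 (R 4.3.3), other scalings, cell filters, resolutions, doublet choices and subsets of cells. Work was done in Python 3.11.15 with scipy 1.17.1.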

Additional observations from a re-analysis of the deposited data

How the results depend on the processing

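With 1 library per genotype no replicate could be left out. No paired analysis was possible because each genotype has 1 library. The log2 ratio of Csf1 was 0.63 and stayed between 0.53 and 0.70 under TMM scaling, other CPM totals, thinning, other added CPM, cell filters, resolutions, doublet removal and cells outside G2/M and S. It was 0.37 with the mean of per-cell CPM. With Gm28438-type cells in both libraries it was 0.053, and 0.26 with fl/fl then weighted to the cluster make-up of cKO; for Gm28438-type cKO over Nd3-type fl/fl cells it was 0.91, and 1.02 with that weighting. The log2 ratio of Csf1r was -0.023 and became -0.0033 under TMM, -0.043 in cells outside G2/M and S, 0.091 with Gm28438-type cells in both libraries, 0.053 with that weighting and -0.065 for Gm28438-type cKO over Nd3-type fl/fl cells. The contrast with Nd3-type cells and the weighting were chosen after seeing the data. The cause of these changes was not tested. With Gm28438-type cells in both libraries Csf3r was at 0.37 and Csf2rb at 0.13, against -0.08 and -0.17 in all microglia-like cells. Csf1 and Csf2rb2 rest on few UMIs per cell, and the other classes on few cells.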
